A study of Mus musculus with 11 samples.

Results

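The FGF ligands of the caudal embryo were described here as 8 genes, Fgf3, Fgf4, Fgf5, Fgf8, Fgf9, Fgf15, Fgf17 and Fgf18, among 18193 genes with a probe set that carried exactly 1 symbol. They were chosen by name, and 16 such probe sets measured them, of 45101 on the array. For each gene the probe set with the highest mean over the 11 arrays led. RNA from the neural tube of C57BL/6 mouse embryos had been hybridized to Affymetrix Mouse Genome 430 2.0 arrays, which read each gene through sets of short probes. The values are log2 signal as the authors deposited it, so a difference of 1 is a doubling of signal. The study set apart the region that had closed into a tube from the region still open, at 2 stages.

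Fibroblast growth factors are secreted proteins that bind receptor tyrosine kinases and switch on the ERK kinase cascade, which in turn induces its own inhibitors. In the growing tail end of the vertebrate embryo, FGF signalling is known to hold cells in an undifferentiated state, while retinoic acid made further forward opposes it. Fgf8, Fgf17 and Fgf18 form 1 subfamily of the ligands, and Fgf8 and Fgf4 act together in the caudal mesoderm during mouse axis extension.

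The groups were closed neural tube at embryonic day (E) 9.5 (3 arrays), open neuroepithelium at E9.5 (3 arrays), closed neural tube at E8.5 (2 arrays) and open neuroepithelium at E8.5 (3 arrays). All embryos were of the C57BL/6 background, and the labels name no mutation, transgene or drug in any group. All tissue had been loosened in 2.5% pancreatin and 0.5% trypsin, for 8 min at E9.5 and 5 min at E8.5, and came away with the notochord that clung to it. Each array was a pool of embryos by litter, from 111 embryos in all, and 50 ng of RNA was amplified through a 2-cycle labelling. Closed tissue was the more rostral of each pair, and closure and axial level cannot be told apart. The junction moves along the axis with time, so stage and axial level cannot be told apart either. In these bulk samples, fewer cells of a type and less RNA per cell also cannot be told apart.

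Of the 12 arrays hybridized, 1 of closed E8.5 tissue had been dropped by the authors after quality assessment. The number of arrays limits the precision. The excess of 3-prime over 5-prime control signal, a measure of RNA quality, reached 2.20 in replicate 1 and 2.48 in replicate 2 of open E9.5 tissue (log2), and stayed between 1.14 and 1.82 on the other 9 arrays. The mean of 7 neural markers was 8.54 or more on every array, and each of the 7 was above the filter on all 11. Genes with a mean of at least 4.30, the 40th percentile of all probe sets, were tested (13338 genes). As a second mark of background, the 80 probe sets of olfactory and vomeronasal receptor genes had a median of 3.48 and a 95th percentile of 4.95. Of the 8 ligand genes 7 passed the filter, and Fgf5, with a mean of 4.29, did not.

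The 250 bases before the start of transcription are given for 3 of the ligand genes, in RefSeq's annotation of build GRCm38.p6, because the 3 behaved differently between the regions. Fgf18 was lower in closed tissue at both stages, Fgf9 passed the test at E8.5, and Fgf3 passed it at neither stage. The Fgf18 window lies at chr11:33147401-33147650 on the minus strand, the Fgf9 window at chr14:58072436-58072685 on the plus strand and the Fgf3 window at chr7:144838362-144838611 on the plus strand. Capitals mark a match to a searched motif.
Fgf18: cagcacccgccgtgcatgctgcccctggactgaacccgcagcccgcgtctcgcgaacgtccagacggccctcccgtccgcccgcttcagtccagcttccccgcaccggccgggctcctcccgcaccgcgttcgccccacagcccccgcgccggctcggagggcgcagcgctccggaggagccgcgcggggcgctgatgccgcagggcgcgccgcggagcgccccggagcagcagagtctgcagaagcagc
Fgf9: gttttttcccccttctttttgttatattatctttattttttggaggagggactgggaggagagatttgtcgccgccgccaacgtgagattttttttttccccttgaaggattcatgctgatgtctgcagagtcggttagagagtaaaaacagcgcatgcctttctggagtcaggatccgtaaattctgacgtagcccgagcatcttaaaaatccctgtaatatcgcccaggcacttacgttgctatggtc
Fgf3: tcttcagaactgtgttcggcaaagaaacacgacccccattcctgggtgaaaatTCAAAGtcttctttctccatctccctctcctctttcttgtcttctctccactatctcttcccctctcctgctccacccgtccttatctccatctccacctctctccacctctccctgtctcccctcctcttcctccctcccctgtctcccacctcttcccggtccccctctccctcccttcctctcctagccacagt

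The motifs searched on both strands were the retinoic acid receptor half-site AGGTCA, the TCF/LEF core CTTTGA, the Cdx core TTTATG and the TATA box TATAAA. Of 32851 windows of this length, 14.0%, 13.8%, 10.8% and 12.4% held them, in that order. The single match in these 3 windows was a TCF/LEF core on the minus strand of the Fgf3 window, read as TCAAAG on the printed strand, 192 bases before the start. The windows differed in base composition. The Fgf18 window held 37 CpG dinucleotides and was 77.2% G or C, the Fgf9 window held 11 and was 44.8% G or C, and the Fgf3 window held 4 and was 55.2% G or C, where the median window held 6 CpGs. The promoter table held 5 of the 8 ligand genes. Beside those printed, the Fgf4 window held 21 CpGs (71.2% G or C) and the Fgf5 window 24 (70.8%). Fgf4 did not pass between regions by its leading probe set, and Fgf5 was below the filter. A relation of base composition to the region differences was not tested. In the same RefSeq annotation Fgf15, Fgf4 and Fgf3 follow each other on chromosome 7 with 0 protein-coding genes between neighbours.

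Comparing the regions asked which ligand RNAs mark the tissue still open. Fgf8, Fgf17 and Fgf18 were lower in closed tissue at both stages, and Fgf15 was higher there at both. Fgf9 was lower in closed tissue at E8.5, and Fgf3 and Fgf4 did not pass the test at either stage by their leading probe sets. At E9.5, 1 ligand gene was higher and 3 were lower in closed tissue among the 7 tested, with limma at a Benjamini-Hochberg adjusted p under 0.05, where 8.54% of all tested genes passed, 2.75% higher and 5.79% lower. At E8.5, 1 was higher and 4 were lower, where 7.17% of all tested genes passed, 3.79% higher and 3.38% lower. The median log2 difference of the 7 was -0.10 at E9.5 and -0.71 at E8.5, beside -0.0069 and 0.0015 over all tested genes. The arrays of the regions did not overlap for 4 of the 8 genes at E9.5 (22.5% of all tested genes) and for 5 of the 8 at E8.5 (27.5%).

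**Figure D1:**
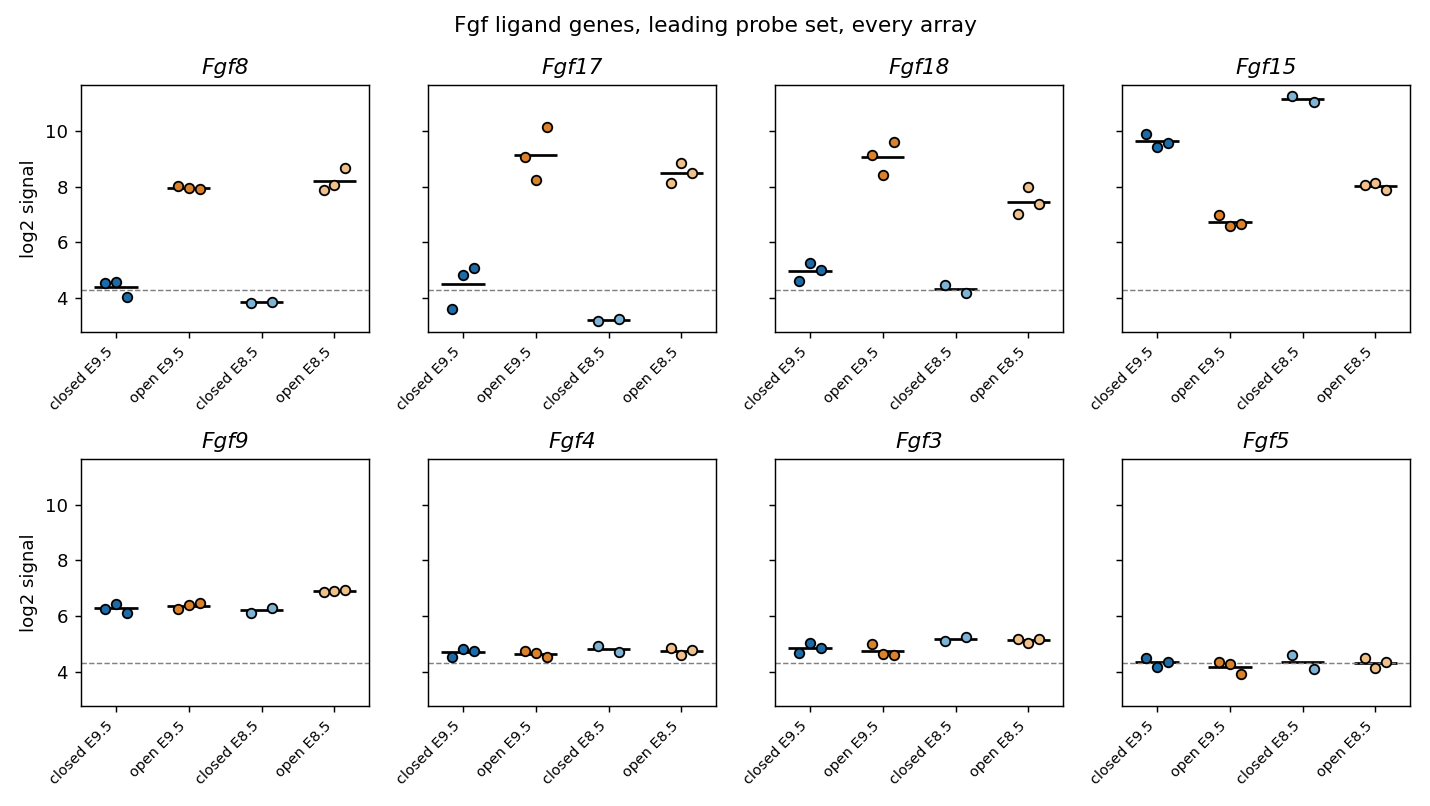
Log2 signal of the leading probe set of each of the 8 ligand genes, with 1 point per array, a bar at the group mean and a dashed line at the filter of 4.30. Fgf8, Fgf17 and Fgf18 are high in both open groups, Fgf15 is high in both closed groups, and Fgf4, Fgf3 and Fgf5 stay near the line.

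Fgf8 is the ligand whose RNA forms a caudal-to-rostral gradient in the elongating axis. At E9.5 its probe set (1451882_a_at) read 4.55, 4.58 and 4.02 in closed tissue and 8.01, 7.97 and 7.93 in open tissue. At E8.5 it read 3.82 and 3.86 in closed tissue and 7.89, 8.04 and 8.69 in open tissue. Every open array lay over 3 log2 units above every closed array, and the open groups of the 2 stages overlapped. Fgf8 averaged 4.38 ± 0.32 in closed and 7.97 ± 0.04 in open tissue at E9.5 (SD, n = 3 each), a log2 difference of -3.59 (SE 0.20, adjusted p = 4.69e-07). At E8.5 it averaged 3.84 ± 0.03 in closed tissue (SD, n = 2) and 8.21 ± 0.42 in open tissue (SD, n = 3), a difference of -4.37 (SE 0.23, adjusted p = 3.03e-07). The closed E8.5 mean lay below the filter and the closed E9.5 mean below the receptor genes' 95th percentile, so the size of these differences depends on the background signal.

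Fgf17, another ligand of the Fgf8 subfamily, was likewise high in open tissue at both stages. Its leading probe set (1456239_at) read 3.60, 4.83 and 5.06 in closed and 9.07, 8.23 and 10.13 in open tissue at E9.5. At E8.5 it read 3.17 and 3.25 in closed and 8.12, 8.85 and 8.50 in open tissue. The closed arrays were all lower than the open arrays, and the open E9.5 arrays spread the most. The log2 difference was -4.64 at E9.5 (SE 0.45, adjusted p = 3.62e-05) and -5.28 at E8.5 (SE 0.50, adjusted p = 3.28e-05), with the closed E8.5 mean of 3.21 below the filter. A second Fgf17 probe set (1421523_at) gave smaller differences of the same direction, -2.66 at E9.5 (adjusted p = 0.0102) and -3.34 at E8.5 (adjusted p = 0.00589). These come from a limma fit of every probe set by itself, with the same filter on the mean.

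Fgf18, which is known for its roles in skeletal and lung development, was the one member of the subfamily whose open groups stood apart by stage. Its probe set (1449545_at) read 4.62, 5.25 and 5.02 in closed and 9.13, 8.43 and 9.59 in open tissue at E9.5. It read 4.48 and 4.16 in closed and 7.02, 8.00 and 7.36 in open tissue at E8.5. No 2 of the 4 groups overlapped, with the order open E9.5, open E8.5, closed E9.5 and closed E8.5 from high to low. The log2 difference of the regions was -4.09 at E9.5 (SE 0.30, adjusted p = 4.5e-06) and -3.14 at E8.5 (SE 0.34, adjusted p = 9.39e-05). The closed means of 4.96 and 4.32 lay close to the 2 marks of background.

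Fgf15, the mouse counterpart of human FGF19 and best known as an ileal hormone of bile acid control, ran the other way. Its probe set (1418376_at) read 9.90, 9.43 and 9.58 in closed and 6.97, 6.60 and 6.67 in open tissue at E9.5. It read 11.26 and 11.05 in closed and 8.08, 8.12 and 7.88 in open tissue at E8.5. The 4 groups did not overlap, and even the lowest group lay above both marks of background. Fgf15 was 7.41-fold higher in closed tissue at E9.5 (log2 difference 2.89, SE 0.15, adjusted p = 2.57e-07) and 8.72-fold higher at E8.5 (3.12, SE 0.17, adjusted p = 4.05e-07). Its chromosomal neighbour Fgf4 passed the test at neither stage by its leading probe set, with log2 differences of 0.05 (SE 0.12) at E9.5 and 0.06 (SE 0.13) at E8.5.

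**Figure D2:**
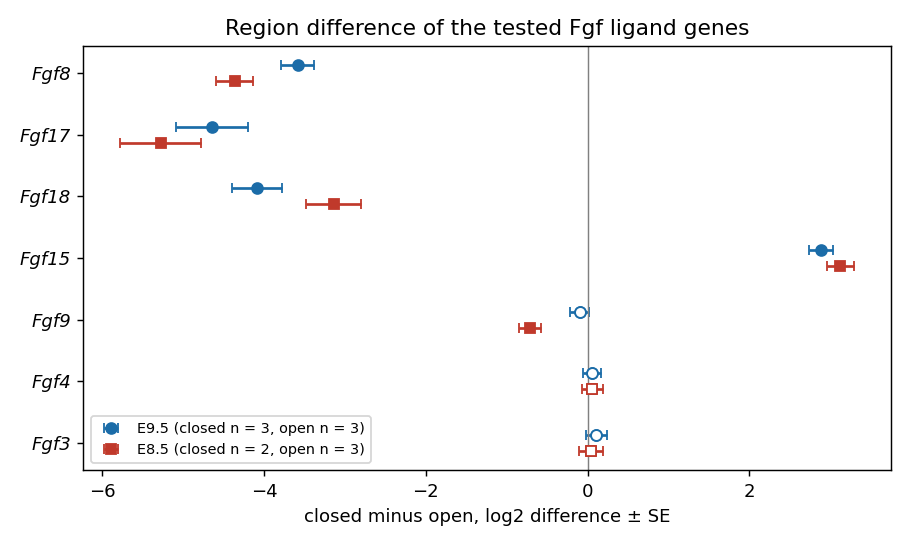
Log2 difference, closed minus open, of the 7 tested ligand genes at E9.5 (circles) and E8.5 (squares), with the SE of the limma fit as bars; filled symbols passed the test. Fgf8, Fgf17 and Fgf18 lie between -3.14 and -5.28, Fgf15 lies at 2.89 and 3.12, and Fgf9 is filled at E8.5 alone.

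Fgf9, a ligand that signals from epithelium to mesenchyme in the embryonic lung, differed less. Its leading probe set (1420795_at) read 6.27, 6.45 and 6.10 in closed and 6.26, 6.39 and 6.46 in open tissue at E9.5. At E8.5 it read 6.12 and 6.29 in closed and 6.88, 6.91 and 6.95 in open tissue. The open E8.5 arrays lay above all others, and the other 3 groups overlapped. The log2 difference was -0.10 at E9.5 (SE 0.12, adjusted p = 0.737) and -0.71 at E8.5 (SE 0.13, adjusted p = 0.00564). Without closed E8.5 replicate 1 the E8.5 difference was -0.63 with an adjusted p of 0.0574. A second Fgf9 probe set (1438718_at) was lower in closed tissue at both stages, by -0.84 at E9.5 (SE 0.20, adjusted p = 0.0346) and by -1.67 at E8.5 (SE 0.23, adjusted p = 0.00121). These come from a limma fit of every probe set by itself, filtered on the highest group mean, that was added after the data were seen. With the filter on the mean, the adjusted p was 0.0361 at E9.5 and 0.0013 at E8.5. The 2 Fgf9 probe sets thus differ on whether a region difference passed at E9.5.

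Fgf4, which with Fgf8 is needed in the mouse presomitic mesoderm, was near background by its leading probe set (1450282_at), whose 11 values ran from 4.54 to 4.91 with all 4 groups overlapping. A second probe set (1420085_at), whose mean of 4.19 was below the filter, read 3.62, 3.88 and 3.45 in closed and 4.02, 3.68 and 3.93 in open tissue at E9.5. At E8.5 it read 3.81 and 3.55 in closed and 5.01, 4.77 and 6.39 in open tissue. The open E8.5 arrays were above all others and 1 of them, replicate 3, was well above the rest. This probe set reached the filter through open E8.5 tissue alone, so its differences are given as a description, with no test. Its mean difference was -0.23 at E9.5 and -1.71 at E8.5, or -1.21 at E8.5 without open E8.5 replicate 3. The same holds for another probe set (1420086_x_at), with an E8.5 difference of -1.36, or -0.84 without that array. The last (1449729_at) stayed between 2.90 and 3.18 on every array.

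**Figure D3:**
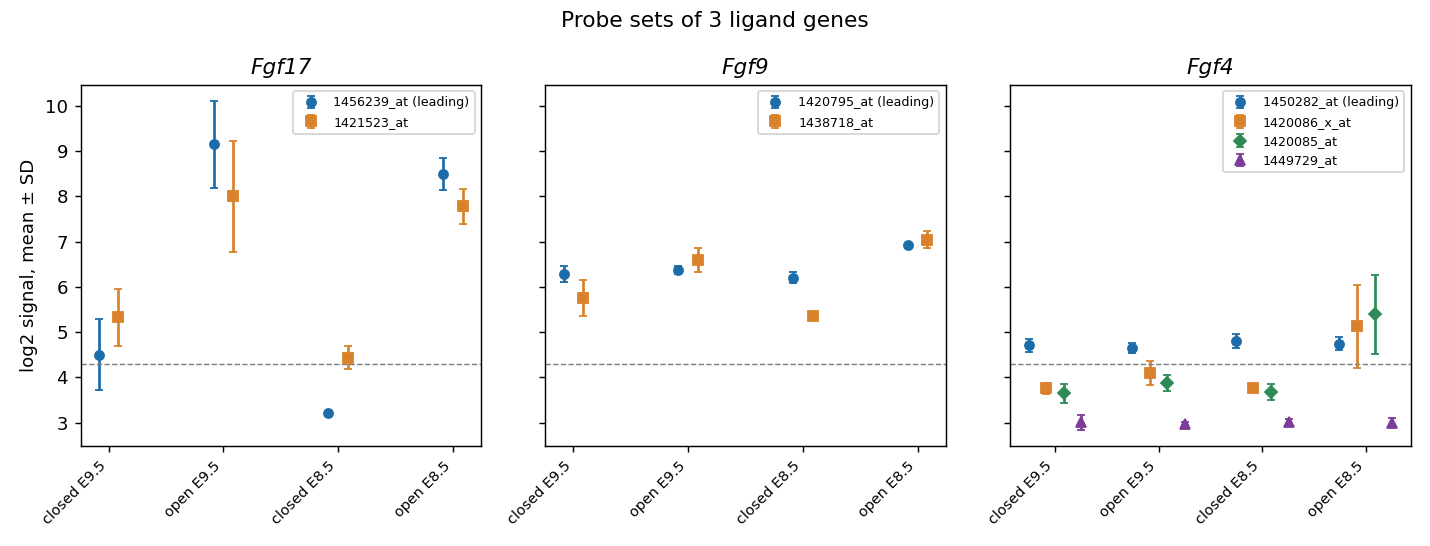
Mean log2 signal ± SD by group (closed E8.5 n = 2, other groups n = 3) for each probe set of Fgf17, Fgf9 and Fgf4, with the filter of 4.30 as a dashed line. The second Fgf9 probe set separates the regions at both stages, and 2 of the 3 lesser Fgf4 probe sets stand above the line in open E8.5 tissue alone.

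Fgf3 had no region difference that passed the test, and Fgf5 lay below the filter. Fgf3, whose loss in mice shortens the tail and disturbs the inner ear, read 4.67, 5.03 and 4.85 in closed and 5.01, 4.62 and 4.59 in open tissue at E9.5. It read 5.10 and 5.25 in closed and 5.19, 5.04 and 5.18 in open tissue at E8.5. Regions overlapped at each stage, E9.5 arrays lay below E8.5 arrays in both regions, and group means ran from 4.74 to 5.18, on both sides of the receptor genes' 95th percentile. Its 2 other probe sets passed no comparison either. Fgf5, a ligand of the early epiblast and later of the hair follicle, read between 3.90 and 4.61 over the 11 arrays (1426186_a_at), with all groups overlapping at the level of the filter.

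Comparing E9.5 with E8.5 in open tissue, 1 ligand gene was higher and 2 were lower of 7 tested, where 5.02% of all tested genes passed, 3.61% higher and 1.42% lower. That share was 2.75% without open E8.5 replicate 1 and 9.46% without open E9.5 replicate 3, the ends of its range with 1 array left out. Fgf18 was 3.02-fold higher at E9.5 (log2 difference 1.59, SE 0.30, adjusted p = 0.00981). Fgf15 was 2.43-fold lower (-1.28, SE 0.15, adjusted p = 0.00043) and Fgf9 was lower by -0.54 (SE 0.12, adjusted p = 0.0219). Fgf8 (-0.23, adjusted p = 0.582), Fgf17 (0.65, adjusted p = 0.486; 0.16 without E9.5 replicate 3 and 1.11 without E9.5 replicate 2), Fgf4 (-0.09, adjusted p = 0.707) and Fgf3 (-0.40, adjusted p = 0.137) did not pass. The Fgf18 call rested on open E8.5 replicate 1, without which the difference was 1.37 with an adjusted p of 0.0559, and Fgf9 lost its call in 7 of the alternatives tried, among them each open array left out except E9.5 replicate 3 (adjusted p from 0.0657 to 0.0984). Stages did not overlap for 4 of the 8 genes (21.8% of all tested genes).

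In closed tissue 0 ligand genes were higher and 1 was lower at E9.5 of 7 tested, where 2.42% of all tested genes passed, 0.96% higher and 1.46% lower. Fgf15 was 2.86-fold lower (log2 difference -1.52, SE 0.17, adjusted p = 0.000399), so that it was lower at E9.5 in both regions. Fgf8 (0.54, adjusted p = 0.406), Fgf17 (1.29, adjusted p = 0.34) and Fgf18 (0.64, adjusted p = 0.633) did not pass, although each E9.5 array lay above each E8.5 array. Such a lack of overlap held for 5 of the 8 genes and for 21.2% of all tested genes. RNA quality moved with the Fgf17 values in open E9.5 tissue. The replicates with 3-prime excess of 2.20 and 2.48 read 9.07 and 8.23, and the replicate with 1.14 read 10.13. On the same arrays in that order, Fgf18 read 9.13, 8.43 and 9.59, and Fgf8 read 8.01, 7.97 and 7.93. With that excess as a covariate, Fgf17 passed in closed tissue (1.22, adjusted p = 0.0162) and in open tissue (1.54, adjusted p = 0.00626). Both closed means, 4.50 at E9.5 and 3.21 at E8.5, lay under the receptor genes' 95th percentile of 4.95, so the closed value is a difference within the range of background.

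The change of the region difference between the stages, E9.5 minus E8.5, was tested as an interaction. With limma 0 of the 7 ligand genes passed, where 1.25% of all tested genes did (0.3% upward and 0.952% downward), and 2 had an unadjusted p under 0.05. These were Fgf9 (0.61, SE 0.18, adjusted p = 0.189) and Fgf8 (0.78, adjusted p = 0.403). The interaction of Fgf18 was -0.95 (adjusted p = 0.548). A difference of Fgf9 or Fgf18 between the stages in how far the regions lie apart is therefore not shown.

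For each tested ligand gene, the genes with the most similar profile were found by the root mean square difference of log2 values over the 11 arrays, each gene centred on its own mean. Nearest to Fgf8 were Rspo3, a Wnt agonist (0.31), Hes7, the segmentation clock repressor (0.39), and Evx1os, an antisense transcript of Evx1 (0.40). Nearest to Fgf17 were Gad1, a GABA-making enzyme (0.57), the homeobox gene Evx1 (0.65) and Evx1os (0.65). Nearest to Fgf18 were Lypd6b (0.46), Smoc2 (0.57) and Lmo2 (0.57). Nearest to Fgf15 were the homeobox gene Pbx3 (0.36), Aldh1a2, which makes retinoic acid (0.39), and the neural patterning gene Pax6 (0.42). The nearest to Fgf9 were Ascl2, Cd81 and Ppp1r3g (0.13 to 0.14). The SD of Fgf9 over the 11 arrays was 0.31, beside 2.07 for Fgf8, so its smaller values are no sign of closer profiles. The nearest to Fgf3 were BC029722, Abhd11os and Adamts7 (0.12 to 0.13), and to Fgf4 Egr3, Iqsec2 and Gm3764 (0.05 to 0.06). These had profiles as flat as those of Fgf3 and Fgf4, so that a small value there says little.

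The receptors and binding partners of the ligands were read from a list of 22 genes, 17 of them tested. In closed tissue 4 were higher and 1 was lower at E9.5, and 5 were higher and 1 was lower at E8.5, with a median difference of 0.28 and 0.31. Over all tested genes 2.75% were higher and 5.79% lower at E9.5, and 3.79% and 3.38% at E8.5. The receptor Fgfr2 lay between 10.70 and 11.16 in closed and between 7.28 and 8.56 in open tissue at E9.5, a difference of 3.14 (adjusted p = 3.2e-05). At E8.5 it differed by 3.81 (SE 0.33, adjusted p = 1.68e-05). Fgfr3 was higher in closed tissue by 1.98 (SE 0.16) at E9.5 and 1.90 (SE 0.18) at E8.5. Fgfbp3, a secreted protein that binds FGFs, was higher by 3.90 (SE 0.31) at E9.5 and 2.95 (SE 0.35) at E8.5. Fgfr1, named after its values were seen, did not pass at E9.5 (0.41) or at E8.5 (0.54, adjusted p = 0.477). Fgfrl1, a receptor relative without the kinase, was lower at E8.5 (-0.44, adjusted p = 0.0135), and the membrane protein gene Flrt2 was lower at E9.5 (-0.55, adjusted p = 0.037). With 1 array left out, the Flrt2 call was lost in 6 of 11 fits (adjusted p up to 0.134) and the Fgfrl1 call in 4 (up to 0.112), among them each closed array of that stage for Fgfrl1.

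Genes that respond to FGF signalling or feed back on it numbered 18, with 16 tested. In closed tissue 6 were lower and 1 was higher at E9.5 (median -0.77), and 9 were lower and 1 was higher at E8.5 (median -1.17). Of all tested genes, 5.79% were lower and 2.75% higher at E9.5, and 3.38% and 3.79% at E8.5. Il17rd, a membrane antagonist of FGF receptors, lay between 10.42 and 10.60 in closed and between 11.79 and 12.03 in open tissue at E9.5. At E8.5 it lay between 8.38 and 8.66 in closed and between 11.54 and 11.74 in open tissue, so that the regions were apart at both stages. Its difference was -1.42 at E9.5 (SE 0.11, adjusted p = 5.74e-06) and -3.10 at E8.5 (SE 0.12, adjusted p = 8.72e-08). Dusp6, the phosphatase of activated ERK, was lower by -2.16 at E9.5 (SE 0.21) and -3.38 at E8.5 (SE 0.24). Dusp5, a nuclear phosphatase of ERK, ran against the list at 1.09 at E9.5 (adjusted p = 0.0186) and 1.07 at E8.5 (adjusted p = 0.0416). Its call was lost in 4 of 11 fits with 1 array left out at E9.5 and in 8 at E8.5 (adjusted p up to 0.266).

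Of these 16 response genes, 5 were higher at E9.5 than at E8.5 in closed tissue and 0 were lower, where 0.96% of all tested genes were higher and 1.46% lower. In open tissue 0 of the 16 passed either way with limma (7 at an unadjusted p under 0.05), where 5.02% of all tested genes did. Those 5 were Etv5, an ETS factor induced by FGF (2.50, SE 0.29, adjusted p = 0.000513), Il17rd (1.97, SE 0.12, adjusted p = 1.04e-05), Dusp6 (1.66, adjusted p = 0.00249) and the receptor tyrosine kinase inhibitors Spry1 (0.92, adjusted p = 0.0294) and Spry2 (0.84, adjusted p = 0.00621). Etv5, Spry1 and Spry2 are named after their values were seen. Over the same comparison the ligand genes Fgf8, Fgf17 and Fgf18 stood at 0.54, 1.29 and 0.64 and did not pass. Several of these calls rested on the setting. Spry1 did not pass without closed E8.5 replicate 1 (0.67, adjusted p = 0.225), nor without open E8.5 replicate 3, open E9.5 replicate 1, closed E9.5 replicate 2 or closed E9.5 replicate 3 (adjusted p from 0.0504 to 0.116). Spry2 did not pass without closed E8.5 replicate 2 (0.74, adjusted p = 0.0741). When a gene's probe sets were averaged, Etv5 (1.36, adjusted p = 0.149) and Spry2 (0.30, adjusted p = 0.361) did not pass.

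**Figure D4:**
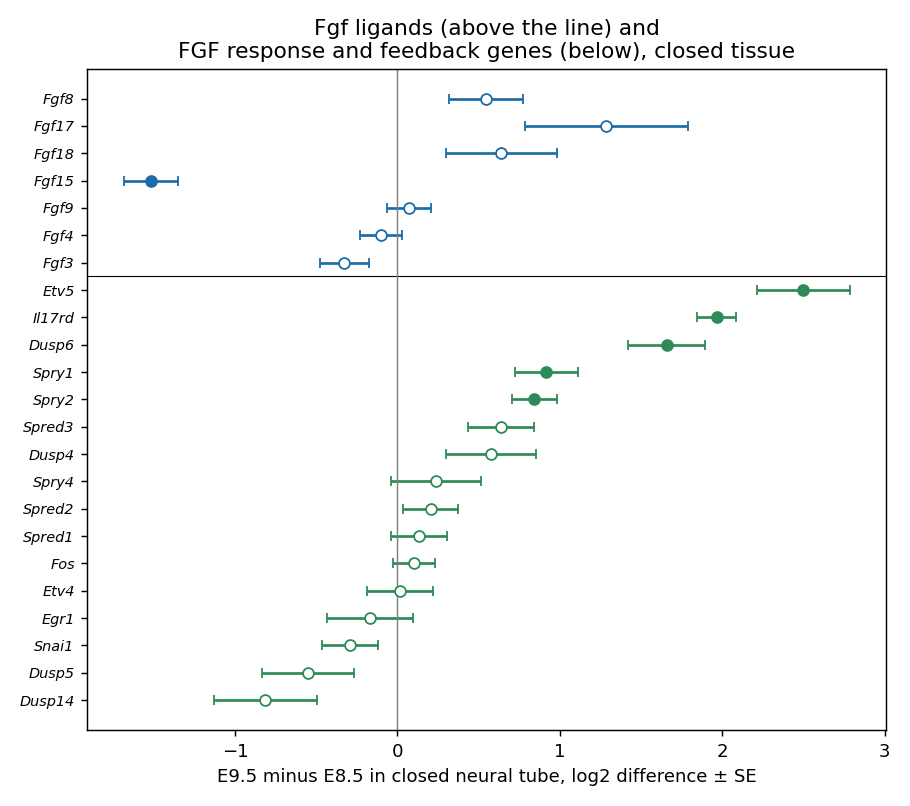
Log2 difference E9.5 minus E8.5 in closed neural tube for the 7 tested ligand genes (above the horizontal line) and the 16 tested response and feedback genes (below it), with SE bars; filled symbols passed the test. Fgf15 is the filled ligand at -1.52, and 5 response genes are filled between 0.84 and 2.50.

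Genes of other caudal signals and progenitors, 18 tested of 20, were lower in closed tissue for 12 and higher for 1 at each stage (median -1.64 at E9.5 and -1.68 at E8.5). The shares of all tested genes were 5.79% lower and 2.75% higher at E9.5, and 3.38% and 3.79% at E8.5. The homeobox gene Evx1 was lower by -4.14 at E9.5 and -4.81 at E8.5, and Cyp26a1, which breaks down retinoic acid, by -5.28 at E9.5. The gene that ran the other way was Fgfbp3, which the receptor list also holds. Genes of retinoic acid and neural differentiation, 13 tested of 14, were higher in closed tissue for 10 and lower for 1 at E9.5 (median 2.01), and higher for 8 and lower for 2 at E8.5 (median 1.68). Aldh1a2 was higher by 2.87 (SE 0.11) at E9.5 and 3.50 (SE 0.13) at E8.5. The receptor gene Rarg was lower by -1.20 at E9.5 (adjusted p = 0.0758 without closed E9.5 replicate 1) and -1.69 at E8.5, while Pax6 was higher at E8.5 by 3.83 (SE 0.18) and the ventral patterning gene Nkx6-1 at E9.5 by 3.33 (SE 0.16). Shh, the hedgehog ligand, which the notochord list also holds, was higher in closed tissue at E9.5 by 0.74 (adjusted p = 0.00292) and lower there at E8.5 by -0.89 (adjusted p = 0.00191), and the change between the stages passed the interaction test (1.63, SE 0.19, adjusted p = 0.00168). Without open E9.5 replicates 1 and 2 the E9.5 difference of Shh was 0.54 (adjusted p = 0.135).

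As a mean, the presomitic mesoderm markers moved with the ligands that were low in closed tissue, while single markers differed. The mean of 9 presomitic mesoderm markers ran from 5.31 to 5.34 in closed and 6.29 to 6.62 in open tissue at E9.5. At E8.5 it ran from 5.23 to 5.36 in closed and 6.54 to 6.75 in open tissue. Of the 7 tested, 4 were lower in closed tissue at each stage, Rspo3 of the caudal signals among them. The shares of all tested genes were 5.79% lower and 2.75% higher at E9.5, and 3.38% and 3.79% at E8.5. Lfng (0.47 at E9.5 and 0.32 at E8.5) and Mesp2 (0.045 and -0.014) did not pass. Tbx6, a defining factor of that mesoderm, differed by -1.99 at E9.5 (adjusted p = 0.00281) and -2.23 at E8.5 (adjusted p = 0.00306). Msgn1, another, averaged 4.54 in closed and 4.58 in open tissue at E9.5 and 4.61 and 4.65 at E8.5, under the receptor genes' 95th percentile. The part of mesoderm in the ligand differences was not tested. Surface ectoderm markers averaged 6.08 to 6.22 in closed and 6.21 to 6.43 in open tissue at E9.5, and 6.30 to 6.41 and 6.70 to 6.78 at E8.5. Of 8 tested, 1 was higher and 2 were lower in closed than in open tissue at E9.5, and 1 was higher and 3 were lower at E8.5. Krt8 and Krt18 differed by 0.51 and 0.009 at E9.5, which did not pass, and by -1.10 and -0.88 at E8.5. Grhl3 and Tfap2c, named after their values were seen, ran in opposite directions. Grhl3 differed by -1.72 at E9.5 and -1.97 at E8.5, and Tfap2c by 1.89 and 1.43. Of 4 tested notochord markers, 2 were higher in closed tissue at E9.5 and 2 were lower at E8.5. The part of these tissues in the ligand differences was not tested. The hindgut list mean was 5.09 to 5.37 in closed and 5.62 to 5.96 in open tissue at E9.5, and 5.49 to 5.67 and 5.84 to 6.03 at E8.5. Of 4 tested hindgut markers, 2 passed at E9.5, both lower in closed tissue, and 0 passed at E8.5 with limma (1 at an unadjusted p under 0.05). The neural marker mean was 9.82 to 9.97 in closed and 8.80 to 9.08 in open tissue at E9.5. At E8.5 it was 10.04 to 10.21 and 8.54 to 8.76, so the mean ran in the direction of Fgf15. Of the 7 tested, 5 were higher in closed tissue at E9.5 and 4 at E8.5, and 0 were lower. Pax6 (3.13 at E9.5 and 3.83 at E8.5) and Sox1 (1.05 and 2.97) are also in the retinoic acid list. Sox3 (0.36 and 0.29) and Cdh2 (-0.03 and 0.35) passed at neither stage, and Sox2 passed at E9.5 alone (0.43 and 0.10). Of 4 tested somite markers, 0 passed between regions with limma at either stage (1 at an unadjusted p under 0.05 at E9.5 and 3 at E8.5). All 7 listed somite markers, tested or not, averaged 5.65 in closed E8.5 replicate 2 and 4.62 in closed E8.5 replicate 1. On the arrays of the other groups they averaged 4.40 to 4.64. Blood markers averaged 7.54 to 8.48 in closed and 8.37 to 8.65 in open tissue at E9.5, and 6.46 to 6.72 and 4.86 to 6.49 at E8.5. Of 3 tested, 3 were higher at E9.5 than at E8.5 in open tissue, where 3.61% of all tested genes were higher and 1.42% lower. In closed tissue 0 of the 3 passed with limma (3 at an unadjusted p under 0.05), where 0.96% were higher and 1.46% lower. The part of blood in the stage differences was not tested.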

How the data were processed

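The authors deposited log2 signal of 45101 probe sets for 11 arrays, with 0 missing values. Per the submitters' processing notes MAS5 was used, with no version or role given. How background was corrected and arrays were normalized is not given in the sources used here, and the deposited log2 values were used unaltered. Probe sets with several symbols (932), no symbol (9160) or control status (64) were left out.

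The 4 groups were fitted as means in 1 model with limma 3.58.1 in R 4.3.3 (eBayes with an intensity trend, 7 residual degrees of freedom and prior degrees of freedom with a median of 4.4), and p-values were adjusted by Benjamini-Hochberg over 13338 genes. Scripts were tested on simulated data. Replicates are biological per the labels, pooled by litter.

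Members, lists and comparisons were chosen with earlier results of these data known. Named were all 8 ligand genes and the 3 nearest profiles of each tested ligand. For each other list and region comparison, the 2 genes past the threshold with the smallest p on either side were named. Defining genes were named for the presomitic mesoderm, surface ectoderm and neural marker lists, and not for the other marker lists. Fgfr1, Fgf13, Klb, Etv5, Spry1, Spry2, Grhl3, Tfap2c, Lfng, Mesp2, Sox3, Cdh2, Wnt8a and Neurog2 fall outside these rules and were chosen after their values were seen. Same-numbered open and closed arrays of a stage deviated together (r of deviations from the group means across genes 0.308, 0.341 and 0.687 at E9.5, 0.576 and 0.697 at E8.5). Some arrays of different numbers did so too. For closed replicate 1, r was 0.317 with open replicate 2 at E9.5 and 0.309 with open replicate 3 at E8.5. Across stages, open E9.5 replicate 3 and open E8.5 replicate 2 reached 0.658. Neither the labels nor these values establish pairs, so the main fit used none, and a replicate block was an alternative. Alternatives covered normalization, filter, probe set, variance model, array weights, samples, the replicate block, RNA quality and each array left out.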

Additional observations from a re-analysis of the deposited data

Results flagged for a closer look

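By a limma test of the interaction, E9.5 minus E8.5, the region difference of 2 FGF response genes and of Shh differed between the stages. The 2 were of 16 response genes tested, where 1.25% of all tested genes passed, 0.3% upward and 0.952% downward. Other listed genes passed as well, Sox1 (-1.92, adjusted p = 0.00191), Wnt8a (1.71, adjusted p = 0.00224) and Neurog2 (1.10, adjusted p = 0.0468). For Il17rd the interaction was 1.69 (SE 0.16, adjusted p = 0.00063) by its leading probe set, and it passed under every alternative tried. A second Il17rd probe set averaged 5.14 in closed and 6.88 in open tissue at E9.5, and 4.22 and 6.53 at E8.5. Its region difference changed in the same direction but by less, and no test of that probe set by itself is given here. For Shh the interaction was 1.63 (SE 0.19, adjusted p = 0.00168), and it also passed under every alternative tried. For Etv5 it was 2.21 (SE 0.38, adjusted p = 0.0175). It did not pass without open E8.5 replicate 3 (adjusted p = 0.0623), open E9.5 replicate 1 (0.0545) or closed E9.5 replicate 3 (0.051), without open E9.5 replicates 1 and 2 together (0.175), or with the mean of its probe sets (1.22, adjusted p = 0.498).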

How the results depend on the processing

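Of 338 alternative values of ligand differences that passed the test, 329 kept direction and call, 9 kept the direction and lost the call, and 0 changed sign. The losses were Fgf18 in open tissue by stage, Fgf9 at E8.5 and, in 7 cases, Fgf9 in open tissue by stage, for which the adjusted p ran up to 0.0984 with 1 array left out. Fgf9 at E9.5 gained a call with the mean of its probe sets (-0.47, adjusted p = 0.0256). The count of ligand genes in closed tissue by stage was 2 with the 3-prime covariate, where 5.47% of all tested genes passed. Between regions, the share of all tested genes with 1 array left out ran from 5.94% to 11.5% at E9.5. At E8.5 it ran from 4.9% to 8.22%. By stage it ran from 2.75% to 9.46% in open and from 1.3% to 2.81% in closed tissue. For the interaction it ran from 0.63% to 1.79%. With 1 array left out, the counts ran from 4 to 4 between regions at E9.5, 4 to 5 at E8.5, 1 to 3 by stage in open tissue (1 without open E8.5 replicate 1), 1 to 1 in closed tissue and 0 to 0 for the interaction. With the replicate block no ligand call changed (4 genes between regions at E9.5, 5 at E8.5, 3 by stage in open tissue, 1 in closed tissue and 0 for the interaction), while the share of all tested genes past the threshold was 16.7% at E9.5, 9.99% at E8.5 and 3.39% for the interaction. It was 25.7% at E9.5 and 32.2% by stage in open tissue with array weights. Signs that turned belonged to differences that had not passed. With the mean of all probe sets Fgf3 was -0.090 at E9.5 and -0.15 for the interaction. With array weights Fgf3 was -0.068 and -0.089, Fgf4 at E9.5 -0.0038, Fgf9 at E9.5 0.035 and Flrt2 at E8.5 -0.068. With the covariate the interaction of Fgf17 was -0.32 and of Fgf4 0.078, and with both open E9.5 arrays of highest 3-prime excess left out these were -0.35 and 0.10, and Fgfrl1 at E9.5 was 0.026. With 1 array left out, Fgf3 ran from -0.040 to 0.12 between regions at E8.5 and from -0.022 to 0.20 for the interaction. Fgf4 ran from -0.0027 to 0.14 at E9.5, -0.046 to 0.17 at E8.5, -0.21 to 0.0058 in closed tissue by stage and -0.11 to 0.10 for the interaction. Fgf8 by stage in open tissue ran from -0.39 to 0.0055 and Fgf9 in closed tissue from -0.019 to 0.16. Flrt2 at E8.5 ran from -0.14 to 0.21. The causes were not tested. A group left with 1 array took its spread from the rest.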

Other observations

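Of 14 further FGF ligand genes, 4 reached the filter: Fgf10, Fgf13, Fgf21 and Fgf22. Between regions 0 of the 4 passed the limma test (0 at an unadjusted p under 0.05 at E9.5 and 1 at E8.5). Fgf13, which encodes an intracellular member of the family that binds sodium channels, averaged 8.79 in closed tissue at E9.5 and 9.42 in closed tissue at E8.5, a log2 difference of -0.63 (SE 0.13, adjusted p = 0.0252). In open tissue it averaged 8.66 at E9.5 and 8.98 at E8.5 (-0.32, adjusted p = 0.164). Its interaction was -0.32 (adjusted p = 0.613).

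Klb, the co-receptor through which Fgf15 acts in the liver, was higher in closed tissue by 0.59 at E9.5 and by 1.34 at E8.5. Its values ran from 5.33 to 5.51 in closed and 4.64 to 5.17 in open tissue at E9.5, and from 5.97 to 6.13 and 4.61 to 4.85 at E8.5. Klb was named after its values were seen.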
